A study of Mus musculus with 18 samples.

Results

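The left ventricle of mice lacking Csrp3, the gene of muscle LIM protein (MLP), was followed from 3 to 10 weeks of age by comparing the 3 knockout (KO) libraries taken at 10 weeks with the 3 KO libraries taken at 3 weeks. These 6 of the 18 libraries in the series were chosen by labelled genotype and age, with no measured value. The 3 KO libraries taken at 6 weeks served to show whether the level at 6 weeks lay between the other ages. The mice were all males of the 129SVE strain, KO or wild type (WT), and RNA of the mid wall of the left ventricle was sequenced and counted per gene in all 18 libraries, with 3 libraries for each genotype at 3, 6 and 10 weeks. No other allele, agent or treatment is named in the labels for any group. The 6 WT libraries at 3 and 10 weeks gave the change over the same ages without the knockout. The labels do not say whether the libraries of a group came from separate animals, so p-values here measure the spread between these libraries, which may be partly technical.

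MLP is a LIM-domain protein of the cardiomyocyte Z-disc, the structure that joins neighbouring sarcomeres and takes part in sensing stretch. Its loss in mice is used to model dilated cardiomyopathy, a disease in which the ventricle widens, its wall is overstretched and pumping fails. A stressed ventricle is known to raise genes of the foetal heart such as Nppa, Nppb and Myh7, while normal growth after weaning ends cell division, lowers collagen synthesis and completes the shift to burning fat.

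Depth was similar at all ages, with 17243640 to 21397675 counts per KO library at 3 weeks, 16778954 to 19123985 at 6 weeks and 15873296 to 19533085 at 10 weeks. Levels below are CPM, a gene's share of a library's counts after scaling for library composition. The summed level of 10 ventricular cardiomyocyte markers was 106200 to 109500 CPM at 3 weeks and 113400 to 130600 CPM at 10 weeks, matching heart muscle. The sum does not tell ventricle from atrium, since it was 116000 CPM in KO 10-week replicate 1, which held the most atrial transcripts. Irx4, among these markers, was at 19.29 CPM in that library and 36.99 and 56.96 CPM in KO 10-week replicates 2 and 3. Within their groups 3 libraries stood apart. Myl4, the atrial light chain, reached 118 CPM in KO 3-week replicate 3, 436 CPM in KO 6-week replicate 3 and 1145 CPM in KO 10-week replicate 1, against 1.71 to 9.98 CPM in the other 6 KO libraries. The summed level of 12 atrial markers ran from 83.19 to 351.4 CPM at 3 weeks and from 81.91 to 3042 CPM at 10 weeks, with 0 of 11 markers tested called between these ages (edgeR, with 1 at an unadjusted p under 0.05, 1 called by DESeq2 and 0 by limma voom). KO 6-week replicate 3 and KO 10-week replicate 1 also held adipocyte transcripts, with Adipoq at 11.1 and 13.5 CPM. KO 6-week replicate 3, labelled male, held Xist at 118 CPM beside Y-linked transcripts such as Ddx3y at 23.5 CPM, while Xist was at most 1.05 CPM in the other KO libraries. Counts of list members that moved by over 1.5 times without these libraries are given both ways.

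Csrp3 transcripts were present in every KO library. Its level was 1134, 2703 and 1510 CPM at 3 weeks, 2483, 1821 and 1792 CPM at 6 weeks and 2777, 3416 and 1501 CPM at 10 weeks, in the order of replicates 1 to 3. The ages overlapped, and the change from 3 to 10 weeks did not pass the test (log2 fold change 0.53 ± 0.29 SE, edgeR adjusted p = 0.231). It passed without KO 3-week replicate 2 (0.95, edgeR adjusted p = 0.018), without KO 10-week replicate 3 (0.83, edgeR adjusted p = 0.031) and with no low-count filter (0.53, edgeR adjusted p = 0.000138). WT libraries held 951 to 1111 CPM at 3 weeks and 1001 to 1124 CPM at 10 weeks. The labels do not say which part of the gene was targeted, so a count over the whole gene does not check the loss of the protein.

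Across the KO ventricle, 3179 of 15778 genes tested changed between 3 and 10 weeks, which is 20.1% (edgeR quasi-likelihood test, Benjamini-Hochberg adjusted p under 0.05, called below). Of these, 1547 were higher at 10 weeks (9.80% of genes tested) and 1632 were lower (10.3%), and 457 and 602 of them changed over 2-fold. The 3 and 3 values did not overlap for 4721 genes (29.9% of genes tested), 2846 of them called. In the first principal component of the 9 KO libraries, which held 31.89% of the variance, scores were -45.1 to -30.8 at 3 weeks, -7.64 to 2.12 at 6 weeks and 28.3 to 46.1 at 10 weeks, so the 3 ages did not overlap. In the second, which held 20.86%, the 6-week libraries lay below all others, at -32.3 to -24.3. There the 3-week libraries were at 8.38 to 30.3 and the 10-week libraries spread from -20.5 to 42.9. The count of called genes fell to 1405 when only the 6 libraries compared were fitted, and it was 2792 without the 3 libraries rich in atrial transcripts. Of the 3179 calls, 1670 (52.5%) were also made in each of the 6 fits that left out 1 of these libraries, and the lowest count was 2230, without KO 10-week replicate 2. In tissue RNA, fewer cells of a type and less RNA per cell cannot be told apart.

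The level at 6 weeks lay between the 3-week and 10-week levels for 2359 of the 3179 called genes (74.2%), on the mean log2 CPM scale. For another 368 (11.6%) the 6-week level lay past the 10-week level, and for 452 (14.2%) it lay on the far side of the 3-week level. The median called gene had covered 50.4% of its change by 6 weeks, with an interquartile range of 18.6% to 76.8%. The share between was 74.9% among genes called higher and 73.6% among genes called lower. Since a large change leaves more room between its ends, the share for genes not called, 31.5% of 12599, is a description and no test. Without the 3 libraries rich in atrial transcripts the share between was 78.3%, and leaving out single KO libraries gave 68.13% to 78.34%.

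**Figure D1:**
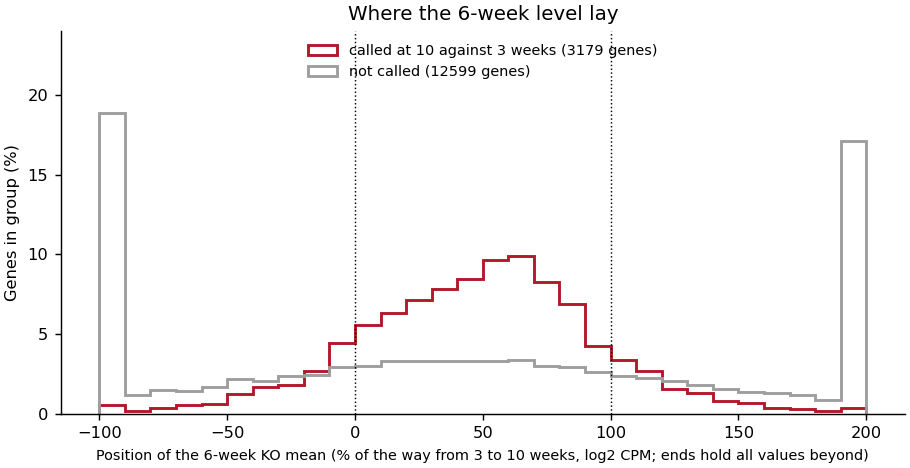
Position of the KO 6-week mean on the way from the 3-week mean (0%) to the 10-week mean (100%), in log2 CPM, for the 3179 called genes and the 12599 genes not called, as the percent of each group per bin of 10 points, with all values beyond the axis collected in the end bins. The called genes centre near the middle of the span, with a median of 50.4%, whereas genes not called, whose span is small, pile up at both ends.

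From 3 to 6 weeks 1829 genes were called (11.6% of genes tested), 843 higher (5.34%) and 986 lower (6.25%). From 6 to 10 weeks 1996 were called (12.7%), 1028 higher (6.52%) and 968 lower (6.14%). These comparisons share the 6-week libraries with each other and the 3-week or 10-week libraries with the whole span. Of the 3179 genes called over the whole span, 933 were called in the early step only, 926 in the late step only, 114 in both and 1206 in neither. The early count was 1089, 1185 and 1195 without KO 6-week replicate 1, KO 6-week replicate 3 or KO 3-week replicate 3, and the late count 1084, 983 and 1307 without KO 10-week replicate 2, KO 6-week replicate 2 or KO 6-week replicate 3. Fitted on only the libraries compared, the early step gave 1399 calls and the late step 874. Without the 3 libraries rich in atrial transcripts they were 1099 and 1241.

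Stress and foetal cardiomyocyte genes had the highest median change of the 25 pathway lists examined. Wherever a list is given below with 0 members called in a direction by edgeR, DESeq2 and limma voom also called 0 and no member had an unadjusted p under 0.05, unless other counts stand beside it. Of 24 tested, 11 were higher and 3 lower at 10 than at 3 weeks, with a median log2 fold change of 1.69 beside -0.0405 for all genes tested. The list holds Myl4 and Myl7, and without the 3 libraries rich in atrial transcripts 11 were higher and 2 lower, with a median of 1.43. Nppa, which encodes the atrial natriuretic peptide, was at 1984, 4091 and 2184 CPM at 3 weeks, 13370, 7380 and 9359 CPM at 6 weeks and 10310, 17430 and 13600 CPM at 10 weeks. Every 6-week and 10-week library lay above every 3-week library (log2 fold change from 3 to 10 weeks 2.32 ± 0.32 SE, edgeR adjusted p = 0.000141), and most of the rise came early (1.87 from 3 to 6 weeks, edgeR adjusted p = 0.0015). The gene lies at chr4:148000722-148002079 of GRCm38 on the plus strand. Myh7, the slow beta myosin heavy chain of the foetal ventricle, was at 1551, 1798 and 1587 CPM, then 5264, 3282 and 3380 CPM, then 6948, 14180 and 14600 CPM. Its 3 ages did not overlap at all, and it rose in both steps, to a log2 fold change of 2.86 ± 0.25 (SE, edgeR adjusted p = 1.15e-06). Myh6, the fast adult isoform, stayed between 40080 and 49660 CPM in all 9 KO libraries, with a change from 3 to 10 weeks of 0.05 ± 0.13 (SE, edgeR adjusted p = 0.833).

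Other members of the group moved at different times. Acta1, the skeletal actin of the foetal heart, was at 3421 to 5687 CPM at 3 weeks, 8530 to 10630 CPM at 6 weeks and 11260 to 19560 CPM at 10 weeks, a log2 fold change of 1.74 ± 0.28 (SE, edgeR adjusted p = 0.000444). Ankrd1, a stretch-responsive titin partner, was at 802.6, 3215 and 3686 CPM at 3 weeks, with replicate 1 low, and at 12450, 15330 and 8179 CPM at 10 weeks (2.22 ± 0.46, SE, edgeR adjusted p = 0.00402). Both had risen by 6 weeks. Nppb, the brain natriuretic peptide, instead stood at 365.2, 653.4 and 942.8 CPM at 3 weeks and 720.1, 541.7 and 833.1 CPM at 6 weeks, which overlap, before 3285, 4274 and 1660 CPM at 10 weeks. Its rise over the whole span was 2.23 ± 0.36 (SE, edgeR adjusted p = 0.000612), nearly all of it in the late step (2.14, edgeR adjusted p = 0.0019). Fgf6, a fibroblast growth factor of developing muscle, followed the same course, from 14.78 to 15.67 CPM at 3 weeks and 11.85 to 15.95 CPM at 6 weeks to 52, 69.94 and 85.59 CPM at 10 weeks (2.20 ± 0.20, SE, edgeR adjusted p = 2.44e-07). Xirp1 and Rcan1, named after their values were seen, also rose late. Xirp1, an intercalated disc protein, was at 246 to 833.3 CPM at 3 weeks, 252 to 258.8 CPM at 6 weeks and 4050, 4180 and 814 CPM at 10 weeks, so that KO 10-week replicate 3 lay below the highest 3-week library. Rcan1, an inhibitor and target of calcineurin, was at 118.6 to 327.7 CPM at 3 weeks and 826.4, 1483 and 309.5 CPM at 10 weeks, again with replicate 3 inside the 3-week range.

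**Figure D2:**
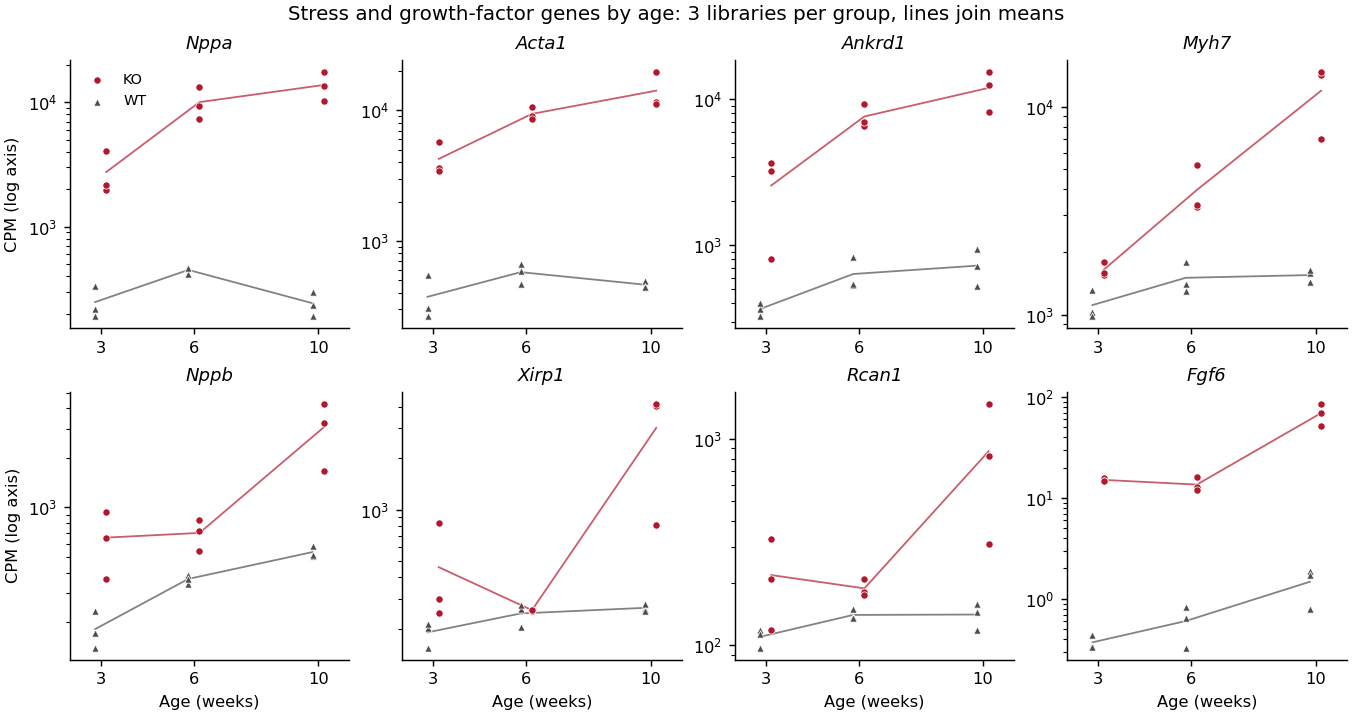
CPM on a log axis against age in weeks for 8 stress and growth-factor genes, each point 1 library (KO circles, WT triangles), with lines joining the group means. Nppa, Acta1 and Ankrd1 had risen by 6 weeks in KO, Myh7 rose in both steps, and Nppb, Xirp1, Rcan1 and Fgf6 were near their 3-week level at 6 weeks.

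The 3 members called lower were Acta2, Tnnt1 and Nr4a3. Acta2, smooth muscle actin, which is also on the list of mural cell markers, was at 491.7, 269.6 and 438.7 CPM at 3 weeks and 75.17 to 144 CPM at 10 weeks, with no overlap (-1.81 ± 0.24, SE, edgeR adjusted p = 6.14e-05). Its level was already 73.06 to 90.85 CPM at 6 weeks. Tnnt1, the slow skeletal troponin T, went from 22.23 to 29.23 CPM at 3 weeks to 14.82 to 17.33 CPM at 10 weeks. Nr4a3, an orphan nuclear receptor, dipped at 6 weeks, lost its call in several alternatives and is described with the other dips below.

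Of 24 neurohumoral ligands and receptors, 4 were higher and 3 lower. Of those that rose, Npr3, the clearance receptor of natriuretic peptides, was at 16.25 to 24.5 CPM at 3 weeks, 29.93 to 46.58 CPM at 6 weeks and 38.35 to 75.77 CPM at 10 weeks (1.49 ± 0.23, SE, edgeR adjusted p = 0.000146). Corin, the protease that activates the Nppa product, was at 118.6 to 212 CPM and then 271.2 to 335.8 CPM (0.89 ± 0.15, SE, edgeR adjusted p = 0.000172), and Edn3, an endothelin, at 6.083 to 21.79 CPM and then 46.05 to 61.6 CPM. In all 3 genes the 10-week libraries lay above the 3-week libraries. Adra1b, an alpha-1 adrenergic receptor, fell from 41.01 to 57.59 CPM to 23.27 to 27.31 CPM (-0.95 ± 0.13, SE, edgeR adjusted p = 3.33e-05), and Rgs2, a brake on Gq-coupled receptors, from 43.47 to 61.4 CPM to 15.78 to 31.78 CPM. The number lower was 6 without KO 10-week replicate 1 and 5 without the 3 libraries rich in atrial transcripts.

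Calls among sarcomere and Z-disc genes over the whole span were all upward. Of 30 tested, 15 were higher at 10 weeks and 0 lower (edgeR, with 2 lower at an unadjusted p under 0.05), with a median log2 fold change of 0.42. Of the same 30, 11 were called higher in the late step against 4 in the early step. Myot, which encodes the Z-disc protein myotilin, rose from 23.72, 25.38 and 44.47 CPM at 3 weeks through 68.71 to 101.4 CPM at 6 weeks to 429.6, 485.7 and 308.1 CPM at 10 weeks. The 3 ages did not overlap (3.71 ± 0.26, SE, edgeR adjusted p = 1.67e-07). Synpo2, an actin-bundling Z-disc protein, stayed at 220.1 to 229 CPM at 6 weeks, next to 141 to 224.6 CPM at 3 weeks, and reached 439.4 to 933.6 CPM at 10 weeks (1.84 ± 0.22, SE, edgeR adjusted p = 1.82e-05). Myom2, the M-band protein that ties thick filaments, went early instead, from 1369 to 1484 CPM at 3 weeks to 2129 to 2575 CPM at 6 weeks and 2398 to 3115 CPM at 10 weeks (0.97 ± 0.13, SE, edgeR adjusted p = 2.00e-05). Leaving out single libraries gave 13 to 19 members higher and at most 1 lower.

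Cytosolic and small heat shock genes, the chaperones that keep muscle proteins folded, rose in the late step. At 10 weeks 11 of 20 were higher than at 3 weeks and 0 lower (edgeR), with a median log2 fold change of 0.64. The early step had a median of -0.34, with 1 member called higher and 0 lower (edgeR, with 6 lower at an unadjusted p under 0.05). The late step had a median of 0.62 with 14 called, all higher. Hspb8, a small heat shock protein of the chaperone-assisted autophagy route at the Z-disc, rose in both steps, from 228.1 to 348.3 CPM to 398.8 to 455.8 CPM and then 515.4 to 667.3 CPM (1.05 ± 0.13, SE, edgeR adjusted p = 8.38e-06). Hsp90ab1, a constitutive cytosolic HSP90, was at 1542 to 1762 CPM at 3 weeks, 1459 to 1845 CPM at 6 weeks and 2237 to 2671 CPM at 10 weeks (0.54 ± 0.11, SE, edgeR adjusted p = 0.00108). Hspb6, another small heat shock protein of muscle, was at 1327 to 1639 CPM and 2044 to 2939 CPM at 3 and 10 weeks. Some members differed widely between replicates. The inducible pair Hspa1a and Hspa1b, near-identical copies whose counts cannot be told apart with confidence and which were named after their values were seen, are an example. Hspa1a was at 3.457, 3.361 and 61.49 CPM at 3 weeks, 3.86 to 4.708 CPM at 6 weeks and 419.2, 358.2 and 38.11 CPM at 10 weeks. KO 3-week replicate 3 lay above its group and KO 10-week replicate 3 below it, so the ages overlapped, and its adjusted p was 0.0364, or 0.0991 without KO 3-week replicate 2 (edgeR). The same libraries stood apart for Xirp1, Rcan1 and Ccn2. The number of heat shock genes called was 6 without KO 10-week replicate 2 or without KO 3-week replicate 1, and 7 without KO 10-week replicate 1. In WT 5 of the 20 were higher at 10 than at 3 weeks and 0 lower, with a median of 0.585. The age change was called different between KO and WT for 0 of the 20 (edgeR). In each direction of that difference 2 had an unadjusted p under 0.05, and DESeq2 and limma voom each called 1.

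Genes of cell division fell nearly as a group, and most of the fall was over by 6 weeks. Of 37 tested, 35 were lower at 10 than at 3 weeks and 1 higher, with a median log2 fold change of -2.27. In the early step 31 were lower and 1 higher, and in the late step 1 was lower and 0 higher (edgeR, with 1 higher at an unadjusted p under 0.05). The members called over the whole span had covered a median of 89.9% of their change by 6 weeks. Mki67, the Ki-67 antigen of cycling nuclei, was at 41.31, 32.6 and 20.39 CPM at 3 weeks, 1.843, 3.365 and 3.932 CPM at 6 weeks and 5.051, 1.693 and 2.335 CPM at 10 weeks. Both later ages lay below every 3-week library and overlapped each other (-3.40 ± 0.41 from 3 to 10 weeks, SE, edgeR adjusted p = 3.66e-05). Ccnb2, a mitotic cyclin, went from 4.442 to 7.615 CPM to 0.642 to 1.149 CPM (-2.71 ± 0.34, SE, edgeR adjusted p = 9.62e-06), Foxm1, the transcription factor of the mitotic programme, from 5.658 to 11.82 CPM to 0.6045 to 1.809 CPM, and Mcm2, a subunit of the replication helicase, from 13.14 to 15.67 CPM to 4.11 to 6.362 CPM. In each of these 3 the ages did not overlap. The member that rose, Cenpa, the centromeric histone, was at 37.59 to 39.94 CPM at 3 weeks and 48.62 to 74.77 CPM at 10 weeks (0.64 ± 0.14, SE, edgeR adjusted p = 0.00176). In WT 33 of the 37 were lower at 10 weeks and 0 higher, with a median of -2.18, and the changes of the 2 genotypes were called different for 1 member. Leaving out single KO libraries gave 32 to 35 members lower.

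The 250 bases before the transcription starts of these cell division genes were searched on both strands, whether a member fell or rose. The letters sought were TTTGAA or TTTAAA, those of the cell cycle homology region, and CCAAT. RefSeq (GRCm38.p6) gave 33 promoters for 30 of the 37 genes. CCAAT was found in 27 of the 33 (81.8%) and in 11120 of all 32851 promoters (33.8%). TTTGAA or TTTAAA was found in 15 (45.5%) and in 8268 of all (25.2%), and both motifs stood together in 13 (39.4%) and in 2884 of all (8.78%). The promoter of Cenpa, the member that rose, was among these 13. A match describes the letters only and shows no binding. The promoters of 3 genes that fell by 6 weeks are shown, each 5′ to 3′ and ending at the base before the annotated start, with capitals for CCAAT, which reads ATTGG where it lies on the reverse strand, and for the letters of the cell cycle homology region.
Cdk1 (chr10:69352913-69353162, minus strand): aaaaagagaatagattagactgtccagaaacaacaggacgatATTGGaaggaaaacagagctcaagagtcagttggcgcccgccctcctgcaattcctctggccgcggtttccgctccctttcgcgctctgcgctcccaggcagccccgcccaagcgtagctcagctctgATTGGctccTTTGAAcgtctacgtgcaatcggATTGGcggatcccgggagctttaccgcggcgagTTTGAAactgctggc
Ccnb2 (chr9:70421555-70421804, minus strand): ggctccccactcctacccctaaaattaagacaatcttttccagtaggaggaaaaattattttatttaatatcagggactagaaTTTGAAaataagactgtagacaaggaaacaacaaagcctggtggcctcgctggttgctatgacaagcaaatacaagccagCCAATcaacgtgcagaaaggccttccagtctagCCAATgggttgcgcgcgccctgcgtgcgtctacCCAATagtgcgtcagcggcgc
Mki67 (chr7:135716380-135716629, minus strand): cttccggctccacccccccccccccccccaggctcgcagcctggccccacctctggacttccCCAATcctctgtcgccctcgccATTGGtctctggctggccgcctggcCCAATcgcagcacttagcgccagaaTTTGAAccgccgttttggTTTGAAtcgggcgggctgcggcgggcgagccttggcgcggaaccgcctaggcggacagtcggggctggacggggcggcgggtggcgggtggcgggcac

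Cdk1, the kinase that drives entry into mitosis, was chosen for its promoter after its values were seen and had 5 matches in its window. Its level fell from 10.07, 4.874 and 4.115 CPM at 3 weeks to 0.5184 to 1.44 CPM at 6 weeks and 0.3502 to 1.123 CPM at 10 weeks (-3.22 ± 0.53, SE, edgeR adjusted p = 0.000282). The Ccnb2 window had 4 matches and the Mki67 window 5. In Ccnb2 the 3 CCAAT matches began 87, 54 and 21 bases before the start.

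Among the 10 largest falls, 7 were Pif1, Sapcd2, Melk, Ncapg, Pclaf, Nuf2 and Ankle1, which are not on that list. They were at 0.5611 to 7.527 CPM at 3 weeks and at most 0.5836 CPM at 10 weeks, with log2 fold changes of -4.26 to -3.69. The other 3, also not on that list, were Aqp4, Kcne1 and Col26a1. Aqp4, a water channel, went stepwise from 8.84, 20.39 and 4.115 CPM through 1.495 to 2.765 CPM at 6 weeks to 0.3502 to 0.7254 CPM (-4.45 ± 0.54, SE, edgeR adjusted p = 1.85e-05). Col26a1, a minor collagen, was at 9.352 to 11.76 CPM, then 4.205 to 7.422 CPM and then 0.7717 to 0.9672 CPM. Neither gene overlapped between any of the 3 ages.

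Collagen and matrix genes mostly fell while a few stress-related matrix proteins rose. Of 43 tested, 25 were lower and 6 higher at 10 weeks, with a median log2 fold change of -0.84, and the fall went on through both steps, with 12 lower in the early and 16 in the late step. Col3a1, a main fibrillar collagen, was at 892.6, 933.6 and 709 CPM at 3 weeks, 409.3, 561.6 and 742 CPM at 6 weeks and 256.8, 279.9 and 235.8 CPM at 10 weeks. The 10-week libraries lay below all others, and KO 6-week replicate 3 overlapped the 3-week range (-1.72 ± 0.16, SE, edgeR adjusted p = 6.01e-07). Col1a1 went from 372.8 to 525.8 CPM to 214.5 to 258.4 CPM (-0.99 ± 0.20, SE, edgeR adjusted p = 0.00236), and Sparc, a collagen-binding matricellular protein, from 1113 to 1275 CPM to 451.5 to 495.1 CPM (-1.37 ± 0.11, SE, edgeR adjusted p = 7.17e-08). Fbn2, the fibrillin of growing tissue, fell from 13.04 to 23.36 CPM to 1.451 to 2.385 CPM (-3.23 ± 0.25, SE, edgeR adjusted p = 2.73e-08). Postn, which encodes periostin of activated fibroblasts, was at 81.45, 215.4 and 65.23 CPM at 3 weeks and 46.23, 48.48 and 25.16 CPM at 10 weeks (-1.59 ± 0.39, SE, edgeR adjusted p = 0.0106). In WT 26 of the 43 matrix genes were lower at 10 weeks and 0 higher, with a median of -0.935. The age change had the larger value in KO for 1 member and in WT for 2.

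Against that trend, Thbs4, a thrombospondin of stressed muscle, was at 6.521, 15.57 and 4.396 CPM at 3 weeks, 45.68, 30.03 and 36.11 CPM at 6 weeks and 27.71, 51.5 and 27.78 CPM at 10 weeks. Both later ages lay above the 3-week libraries (2.03 ± 0.39, SE, edgeR adjusted p = 0.00213). Ltbp2, a latent TGF-beta binding protein, had the same early rise, from 2.525 to 12.04 CPM to 19.69 to 24.31 CPM at 6 weeks and 14.12 to 39.29 CPM at 10 weeks (2.06 ± 0.48, SE, edgeR adjusted p = 0.00747). Cilp, a matrix protein of cardiac fibroblasts, was at 26.48, 53.89 and 19.08 CPM and then 53.95, 93.88 and 62.74 CPM, a rise of 1.09 ± 0.35 (SE, edgeR adjusted p = 0.0446). Its edgeR adjusted p was 0.16 without KO 10-week replicate 2. The Cilp call was also lost without KO 10-week replicate 3 and without KO 3-week replicate 1 or 3. It was lost again without the 3 atrial-rich libraries and in the fit of only the libraries compared. Ccn2, connective tissue growth factor, was at 64.64, 165.4 and 462.2 CPM at 3 weeks and 2704, 2313 and 361.6 CPM at 10 weeks. KO 10-week replicate 3 lay inside the 3-week range, and the rise of 2.96 ± 0.73 (SE, edgeR adjusted p = 0.0123) had an adjusted p of 0.053 without KO 3-week replicate 2. In the fit of only the libraries compared the Ccn2 rise had edgeR adjusted p = 0.198. The number of matrix genes higher was 3 without KO 10-week replicate 2 or without KO 3-week replicate 1. Summed fibroblast markers were 1635 to 1886 CPM at 3 weeks and 2017 to 2309 CPM at 10 weeks, with 3 of 14 markers higher and 4 lower and a median log2 fold change of -0.17. Gsn alone, at 601 to 783.3 CPM and then 1157 to 1324 CPM, carried the higher sum, since the other 13 summed to 1034 to 1169 CPM at 3 weeks and 859.7 to 984.9 CPM at 10 weeks. The number lower was 2 without KO 10-week replicate 3, and their part in these changes was not tested.

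Among 21 genes of the TGF-beta family, 5 were higher and 3 lower. Tgfb2, a TGF-beta ligand, was at 11.86, 9.971 and 44.33 CPM at 3 weeks, 27.77 to 37.5 CPM at 6 weeks and 197.3, 262.5 and 61.46 CPM at 10 weeks, with no overlap between the 3-week and 10-week libraries (2.97 ± 0.57, SE, edgeR adjusted p = 0.00274). The Tgfb2 call was lost in the fit of only the libraries compared (edgeR adjusted p = 0.111). Bmp6, a ligand of the BMP branch, rose from 17.3 to 21.84 CPM to 37.24 to 51.71 CPM (1.17 ± 0.15, SE, edgeR adjusted p = 1.10e-05), and Smad7, an inhibitor of the pathway, from 18.6 to 21.74 CPM to 25.1 to 37.3 CPM. Smad3, which carries the signal to the nucleus, fell from 19.92 to 27 CPM to 12.51 to 16.46 CPM (-0.65 ± 0.14, SE, edgeR adjusted p = 0.00205), and Fstl1, a secreted follistatin-like glycoprotein, from 165.1 to 302.4 CPM to 84.57 to 140.8 CPM.

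Genes of fuel use had smaller medians than the structural lists. Of 31 genes of fatty acid uptake and oxidation, 7 were higher and 2 lower at 10 weeks, with a median log2 fold change of 0.12. The number lower was 4 without KO 10-week replicate 1 or without the 3 atrial-rich libraries and 1 without KO 10-week replicate 2 or 3 or KO 3-week replicate 1, and the median ran from 0.013 without KO 3-week replicate 2 to 0.23 without KO 3-week replicate 3. Their early step had 0 higher and 4 lower with a median of -0.11, and the late step 11 higher and 0 lower with a median of 0.23 (edgeR, with 2 and 1 at an unadjusted p under 0.05 in the empty directions). Hadhb, a subunit of the mitochondrial trifunctional protein, was at 591.4, 590.4 and 764.9 CPM at 3 weeks, 745.8 to 786.2 CPM at 6 weeks and 960.6 to 1042 CPM at 10 weeks (0.62 ± 0.11, SE, edgeR adjusted p = 0.000344). Cpt1b, the muscle carnitine palmitoyltransferase that admits long-chain fatty acids to mitochondria, was at 67.89 to 100.3 CPM, 79.21 to 93.77 CPM and 123.1 to 131 CPM (0.56 ± 0.12, SE, edgeR adjusted p = 0.00163). Acot1, a cytosolic acyl-CoA thioesterase, fell from 6.386 to 14.79 CPM to 2.055 to 5.262 CPM (-1.43 ± 0.35, SE, edgeR adjusted p = 0.00794). In WT over the same ages 23 of the 31 rose and 0 fell, with a median of 0.44, and the age change was called lower in KO for 5 members and higher for 0.

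Few genes of oxidative phosphorylation were called. Of 45 nuclear genes 0 were higher (edgeR, with 1 at an unadjusted p under 0.05) and 1 lower, Ndufa1 of complex I, whose call was lost in 5 of the 6 fits that left out 1 library, and of 13 mitochondrially encoded messenger RNAs 0 were called. Of 21 citrate cycle genes 2 were higher and 1 lower, and 0 were lower in 5 of the 6 fits without 1 library and without the 3 atrial-rich libraries (edgeR). Idh2, the mitochondrial NADP isocitrate dehydrogenase, was at 717.3, 631.3 and 835.2 CPM at 3 weeks and 1033, 1105 and 1222 CPM at 10 weeks (0.62 ± 0.11, SE, edgeR adjusted p = 0.000341), and Suclg2, a succinyl-CoA ligase subunit, rose by 0.59 ± 0.09 (SE, edgeR adjusted p = 7.62e-05). In branched-chain amino acid breakdown 6 of 18 genes were higher and 0 lower (edgeR), but only 1 of the 18 without KO 3-week replicate 2. Bckdha, a subunit of the rate-limiting dehydrogenase, rose from 61.79 to 72.29 CPM to 98.36 to 114.6 CPM (0.70 ± 0.11, SE, edgeR adjusted p = 7.86e-05).

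Of 25 genes of glucose uptake, glycolysis and glycogen, 7 were higher and 2 lower. Slc2a1, the GLUT1 transporter of the foetal heart, was at 13.28 to 18.69 CPM at 3 weeks, 18.63 to 19.55 CPM at 6 weeks and 40.48, 63.47 and 33.5 CPM at 10 weeks. The 10-week libraries lay above all earlier ones (1.54 ± 0.20, SE, edgeR adjusted p = 2.45e-05), and the change differed from that in WT (edgeR adjusted p of the difference = 0.00042). The number higher in this list was 13 without KO 10-week replicate 1 and 3 without KO 3-week replicate 2 or 3, and 0 were lower without KO 10-week replicate 1 or 2 or KO 3-week replicate 1 (edgeR). Among 24 transcription regulators of energy supply and muscle, 1 was higher and 5 lower. Ppargc1a, the coactivator PGC-1alpha that drives mitochondrial biogenesis, was at 157, 226.3 and 128 CPM at 3 weeks, 50.35, 45.25 and 36.5 CPM at 6 weeks and 64.19, 57.73 and 45.47 CPM at 10 weeks. Both later ages lay below the 3-week libraries (-1.61 ± 0.19 from 3 to 10 weeks, SE, edgeR adjusted p = 8.86e-06), and in WT it was 55.87 to 80.5 CPM at 3 weeks and 61.89 to 75.35 CPM at 10 weeks. Esrrg, a nuclear receptor of oxidative muscle, was the member that rose, from 26.08 to 35.68 CPM to 41.56 to 56.64 CPM. Without KO 10-week replicate 1 the counts were 3 higher and 3 lower, without KO 3-week replicate 1 they were 3 and 4, and without KO 10-week replicate 2 or the 3 atrial-rich libraries 2 and 4.

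**Figure D3:**
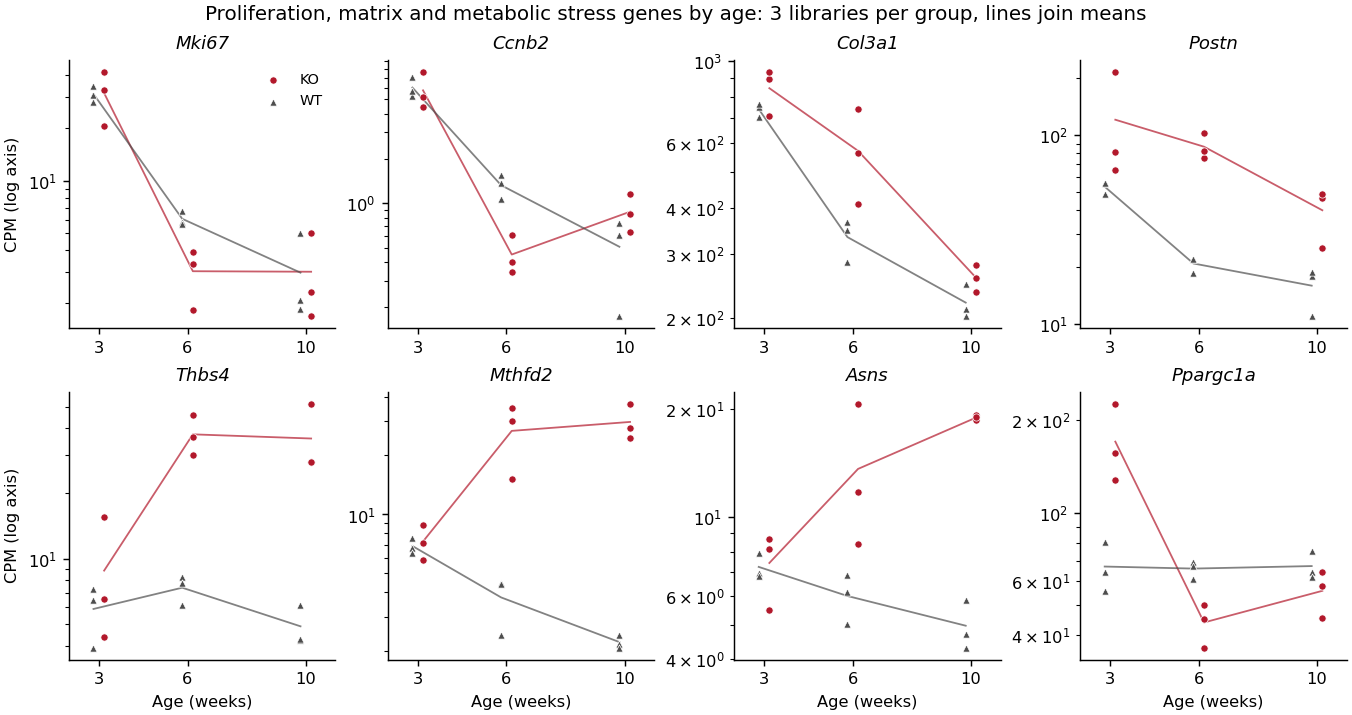
CPM on a log axis against age in weeks for 8 genes of proliferation, matrix and metabolic stress, each point 1 library (KO circles, WT triangles), with lines joining the group means. Mki67 and Ccnb2 fell by 6 weeks in both genotypes, Col3a1 and Postn fell through 10 weeks, Thbs4, Mthfd2 and Asns rose in KO, and Ppargc1a fell in KO by 6 weeks.

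ATF4 is a transcription factor of the integrated stress response that raises genes of amino acid supply and of mitochondrial one-carbon metabolism. Of 24 genes of this programme, 8 were higher and 1 lower in KO at 10 weeks, with a median log2 fold change of 0.42. The median was 0.19 without KO 10-week replicate 3, and 2 were lower without KO 10-week replicate 1 or without the 3 atrial-rich libraries. In WT over the same ages 2 were higher and 9 lower, with a median of -0.40. Over all genes tested, 2609 were called in WT (16.5%), 1334 higher (8.45%) and 1275 lower (8.08%). The age change itself was called different between KO and WT for 909 genes (5.76% of genes tested), 445 with the larger value in KO (2.82%) and 464 with the larger value in WT (2.94%), and among the 24 it was larger in KO for 9 and larger in WT for 0 (edgeR). Mthfd2, the mitochondrial one-carbon enzyme, was at 8.884, 7.114 and 5.845 CPM at 3 weeks, 34.91, 15.22 and 30.02 CPM at 6 weeks and 24.62, 36.75 and 27.66 CPM at 10 weeks in KO, and in WT went from 6.334 to 7.623 CPM to 2.092 to 2.416 CPM. The WT and KO ranges overlapped at 3 weeks and lay apart at 10 weeks, with a rise in KO of 2.02 ± 0.26 (SE, edgeR adjusted p = 2.52e-05) and a difference from WT of 3.65 (edgeR adjusted p = 1.8e-05). Gdf15, a secreted stress cytokine, rose stepwise from 4.817 to 7.73 CPM through 10.9 to 22.1 CPM to 28.9, 68.12 and 46.05 CPM (2.92 ± 0.33, SE, edgeR adjusted p = 1.23e-05), and its difference from WT did not pass the test (1.68, edgeR adjusted p = 0.08). Atf5, a related stress factor, was at 53.27 to 76.72 CPM, 74.43 to 92.05 CPM and 102.5 to 125.9 CPM (0.82 ± 0.13, SE, edgeR adjusted p = 8.97e-05). The member that fell, Ddit4, an inhibitor of mTORC1, had an adjusted p of 0.092 without KO 10-week replicate 2, and it also lost its call without KO 10-week replicate 3 or KO 3-week replicate 2 or 3.

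The count of genes whose age change differed between KO and WT moved with single libraries. It was 553 without KO 10-week replicate 2, 1497 without KO 10-week replicate 3, 558 without WT 10-week replicate 3, and 570 and 552 without WT 3-week replicates 1 and 2. Fitted on only the libraries compared, WT gave 3383 calls and KO 1405, the reverse of their order in the fit of all 18. The WT count was 1596, 1613 and 1462 without WT 10-week replicate 2, WT 10-week replicate 3 or WT 3-week replicate 1.

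The composite letters TGATGNAA, to which ATF4 and its C/EBP partners are known to bind, were searched in the same way over the 250 bases before the start. RefSeq gave 26 promoters for 22 of the 25 genes listed, and 6 of the 26 held a match on either strand (23.1%), beside 1134 of all 32851 promoters (3.45%). The promoters of 2 called members are shown with their match in capitals, picked with knowledge of their values.
Asns (chr6:7693210-7693459, minus strand): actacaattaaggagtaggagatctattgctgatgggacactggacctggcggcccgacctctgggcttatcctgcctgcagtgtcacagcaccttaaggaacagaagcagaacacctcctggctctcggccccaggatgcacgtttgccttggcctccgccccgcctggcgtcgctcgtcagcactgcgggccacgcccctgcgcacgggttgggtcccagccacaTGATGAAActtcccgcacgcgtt
Nupr1 (chr7:126625471-126625720, minus strand): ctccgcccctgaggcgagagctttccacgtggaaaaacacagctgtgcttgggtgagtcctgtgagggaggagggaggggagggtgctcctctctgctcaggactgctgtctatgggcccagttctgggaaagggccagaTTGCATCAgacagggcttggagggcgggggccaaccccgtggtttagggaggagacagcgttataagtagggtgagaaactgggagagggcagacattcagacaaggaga

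Asns, asparagine synthetase, was at 8.665, 5.49 and 8.137 CPM at 3 weeks, 11.75, 8.387 and 20.71 CPM at 6 weeks and 19.29, 18.62 and 18.97 CPM at 10 weeks. The 10-week libraries lay above every 3-week library, and the 6-week libraries spanned the gap (1.34 ± 0.24, SE, edgeR adjusted p = 0.000448). Nupr1, a small stress-induced nuclear protein, was at 5.331 to 6.386 CPM, 8.538 to 11 CPM and 9.397 to 15.22 CPM, with both later ages above the 3-week libraries (0.99 ± 0.19, SE, edgeR adjusted p = 0.00092). The Asns match lies 23 to 16 bases before the annotated start, and the Nupr1 match, written on the other strand, 110 to 103 bases before it. Mthfd2, with the largest rise of the 9 members whose change differed, had no match in its window.

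**Figure D4:**
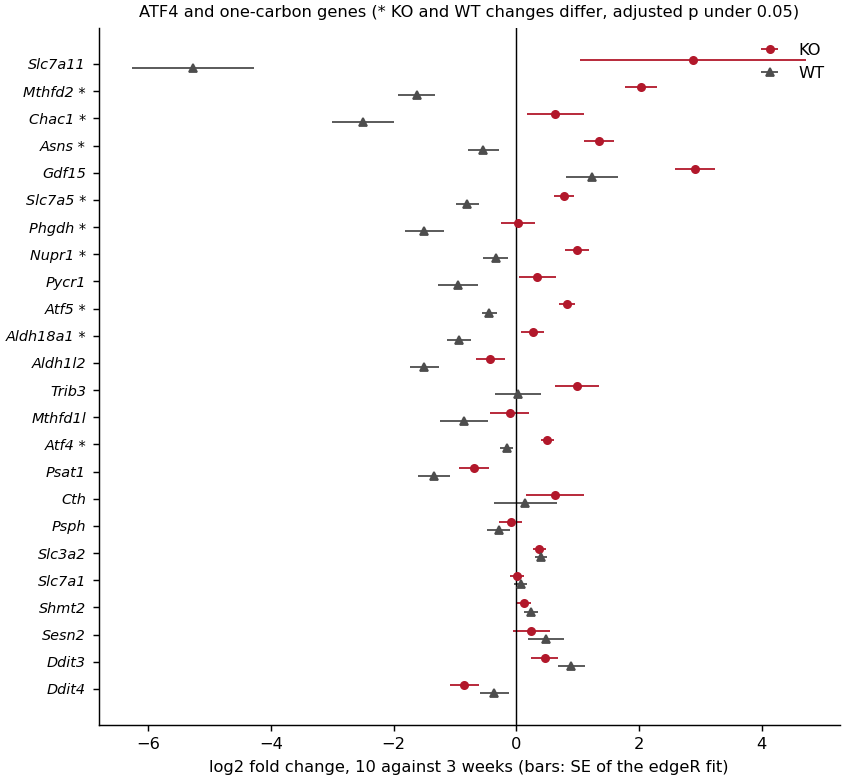
Log2 fold change from 3 to 10 weeks in KO (circles) and WT (triangles) for the 24 ATF4 and one-carbon genes tested, with bars giving the SE of the edgeR fit, ordered by the difference between the genotypes. Asterisks mark the 9 members whose change was called different, all with the larger value in KO.

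Endoplasmic reticulum chaperones, which fold secreted proteins, went the other way. Of 18 tested, 0 were higher and 3 lower at 10 weeks, with a median log2 fold change of -0.30, and the fall was early, with 10 lower in the early step and 3 higher in the late step. In WT 4 were higher and 0 lower, and the age change was larger in WT for 6 members and larger in KO for 0 (edgeR). Manf, a secreted chaperone-like factor, was at 50.99, 142.3 and 82.82 CPM at 3 weeks and 40.5 to 50.3 CPM at 10 weeks, the ages lying apart by a narrow margin (-1.04 ± 0.24, SE, edgeR adjusted p = 0.00669). Sdf2l1 and Pdia6, the other 2 that fell, had adjusted p-values of 0.054 and 0.078 without KO 3-week replicate 2, which was the highest library for all 3. The number lower was 8 without KO 3-week replicate 1. Without KO 3-week replicate 2 it was 1, beside 1 higher and a median of -0.09, and the median was -0.17 without KO 10-week replicate 3.

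Of 21 genes of muscle ubiquitin ligases and autophagy, 6 were higher and 3 lower. Bnip3, a mitophagy receptor, was at 56.94 to 67.81 CPM at 3 weeks, 64.94 to 85.2 CPM at 6 weeks and 146.3 to 160.4 CPM at 10 weeks (1.32 ± 0.13, SE, edgeR adjusted p = 4.35e-07), and its change differed from WT (edgeR adjusted p = 0.00018). Trim54, a muscle RING-finger protein, rose stepwise from 147.2 to 199.3 CPM through 281.9 to 313.9 CPM to 433.8 to 516.2 CPM (1.40 ± 0.13, SE, edgeR adjusted p = 2.15e-07), as it did in WT (1.36). Ctsd, a lysosomal protease, went from 350.8 to 385.7 CPM to 643.3 to 834.5 CPM (1.03 ± 0.10, SE, edgeR adjusted p = 7.46e-07). Trim55, a relative of Trim54, fell from 139.3 to 167.5 CPM to 83.7 to 103.6 CPM (-0.72 ± 0.10, SE, edgeR adjusted p = 3.84e-05). The number lower was 6 without KO 10-week replicate 3 and 1 without KO 10-week replicate 1 or 2, KO 3-week replicate 2 or the 3 atrial-rich libraries.

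Ion channel and gap junction genes leaned downward, with 8 of 26 lower and 3 higher and a median log2 fold change of -0.23, which ran from -0.44 without KO 10-week replicate 3 to -0.10 without KO 10-week replicate 2. Kcne1, the beta subunit of the slow delayed rectifier, was at 44.99, 38.48 and 21.7 CPM at 3 weeks, 5.069 to 7.031 CPM at 6 weeks and 1.263 to 2.297 CPM at 10 weeks. The 3 ages did not overlap (-4.37 ± 0.32, SE, edgeR adjusted p = 1.15e-07), and the fall exceeded that in WT by 2.56 on the log2 scale (edgeR adjusted p = 0.0014). Kcnq1, the alpha subunit of the same channel, fell later, from 41.43 to 70.08 CPM at 3 weeks and 44.55 to 49.94 CPM at 6 weeks to 23.39 to 29.24 CPM at 10 weeks (-0.99 ± 0.15, SE, edgeR adjusted p = 6.44e-05). Of 25 calcium handling genes, 1 was higher and 2 lower, and 2 were higher without KO 10-week replicate 1 or KO 3-week replicate 1. Atp2a2, the calcium pump SERCA2, was at 9410 to 12790 CPM, 8765 to 10160 CPM and 11830 to 13840 CPM, and its change over the whole span did not pass the test (0.20 ± 0.12, SE, edgeR adjusted p = 0.255). Cacna1g, a T-type calcium channel of the young heart, fell from 109.4 to 205.7 CPM to 40.69 to 47.04 CPM (-1.78 ± 0.20, SE, edgeR adjusted p = 5.18e-06), and S100a1, a calcium sensor of the contractile apparatus, rose from 415.1 to 443.8 CPM to 578.4 to 661.8 CPM.

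Imprinted growth genes, a network known to be switched down after birth, had 9 of 19 members lower and 1 higher (2 higher without KO 3-week replicate 2), with a median log2 fold change of -0.65. Igf2, the foetal insulin-like growth factor, was at 97.51, 65.37 and 91.56 CPM at 3 weeks, 30.7, 39.93 and 39.77 CPM at 6 weeks and 20.91, 22.12 and 15.23 CPM at 10 weeks. The 3 ages lay fully apart (-2.13 ± 0.17, SE, edgeR adjusted p = 3.37e-08). Its fall in WT was smaller, -1.28, and the difference passed the test (-0.85, edgeR adjusted p = 0.029). Mest, another paternally expressed growth gene, fell from 15.07 to 28.88 CPM to 5.72 to 6.77 CPM, most of it by 6 weeks. Igf2r, the receptor that clears the Igf2 product, was the member that rose, from 242.1 to 276.3 CPM to 347.4 to 439.6 CPM (0.57 ± 0.12, SE, edgeR adjusted p = 0.00178). In WT 8 of the 19 were lower and 1 higher, with a median of -0.498. The age change had the larger value in WT for 2 members and in KO for 0 (edgeR, with 1 at an unadjusted p under 0.05).

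Immune lists moved in different directions. Of 24 complement and chemokine genes 10 were higher and 3 lower, with a median log2 fold change of 0.84. Cx3cl1, the membrane-bound chemokine fractalkine, rose from 5.908, 7.002 and 6.032 CPM at 3 weeks through 13.71 to 19.99 CPM at 6 weeks to 25.47, 51.02 and 22.3 CPM at 10 weeks (2.38 ± 0.26, SE, edgeR adjusted p = 2.80e-06). C1ra, a protease of the classical complement pathway, and Serping1, its inhibitor, rose by 1.14 ± 0.17 and 0.82 ± 0.10 (SE), with edgeR adjusted p = 8.15e-05 and 1.18e-05, and both were near their 10-week level by 6 weeks. The 3 that fell were C1qa, C1qb and C1qc, the macrophage-derived subunits of C1q. C1qc went from 50.88 to 63.02 CPM to 28.83 to 31.61 CPM (-0.88 ± 0.13, SE, edgeR adjusted p = 4.58e-05). Of 16 macrophage markers 7 were lower and 0 higher, and their summed level was 383 to 406.4 CPM at 3 weeks, 301 to 365 CPM at 6 weeks and 229.5 to 295.8 CPM at 10 weeks. In WT 7 of the 16 were also lower and 0 higher. The age change was called different for 0 of them (edgeR, with 2 in each direction at an unadjusted p under 0.05). C1qa, C1qb and C1qc are on both lists, so the falls of the complement list are shared with the macrophage markers. Mrc1, the mannose receptor of resident macrophages, fell from 28.1 to 37.76 CPM to 10.62 to 19.43 CPM (-1.18 ± 0.18, SE, edgeR adjusted p = 9.97e-05). Of 25 interferon-induced genes 4 were lower and 0 higher (edgeR), and 1 was lower without KO 10-week replicate 2 or without the 3 atrial-rich libraries, and 2 without KO 10-week replicate 3 or KO 3-week replicate 3. Gbp3, an interferon-induced GTPase, went from 10.68 to 13.78 CPM to 6.654 to 8.84 CPM (-0.70 ± 0.16, SE, edgeR adjusted p = 0.00272). In WT 5 of the 25 were higher and 0 lower, and the age change was larger in WT for 4 members.

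Of 19 clock genes 8 were higher and 1 lower over the whole span, but 10 were higher and 4 lower in the early step alone. Bhlhe41, a repressor within the clock, was at 21.65 to 26.05 CPM at 3 weeks, 53.11 to 62.78 CPM at 6 weeks and 52.97 to 93.15 CPM at 10 weeks (1.51 ± 0.16, SE, edgeR adjusted p = 1.49e-06). Npas2, an activator of the clock, fell from 8.315, 18.15 and 16.04 CPM to 3.297 to 4.775 CPM (-1.86 ± 0.26, SE, edgeR adjusted p = 2.91e-05). The labels used here give no time of day for tissue collection, and its part in these changes was not tested. Of 22 immediate early genes 7 were higher and 0 lower (edgeR), and 3 were higher without KO 10-week replicate 1 or without KO 3-week replicate 1, and 4 without the 3 atrial-rich libraries. Of 17 p53 targets 1 was higher, the kinase gene Plk2, and 1 lower, Eda2r, with 2 higher without KO 10-week replicate 1, 2 lower without KO 10-week replicate 3 and 0 lower without KO 10-week replicate 2 (edgeR). Endothelial markers had 3 of 14 lower and 0 higher (edgeR, with 1 higher at an unadjusted p under 0.05), and 0 were lower without KO 10-week replicate 2, without KO 3-week replicate 3 or without the 3 atrial-rich libraries (edgeR).

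**Figure D5:**
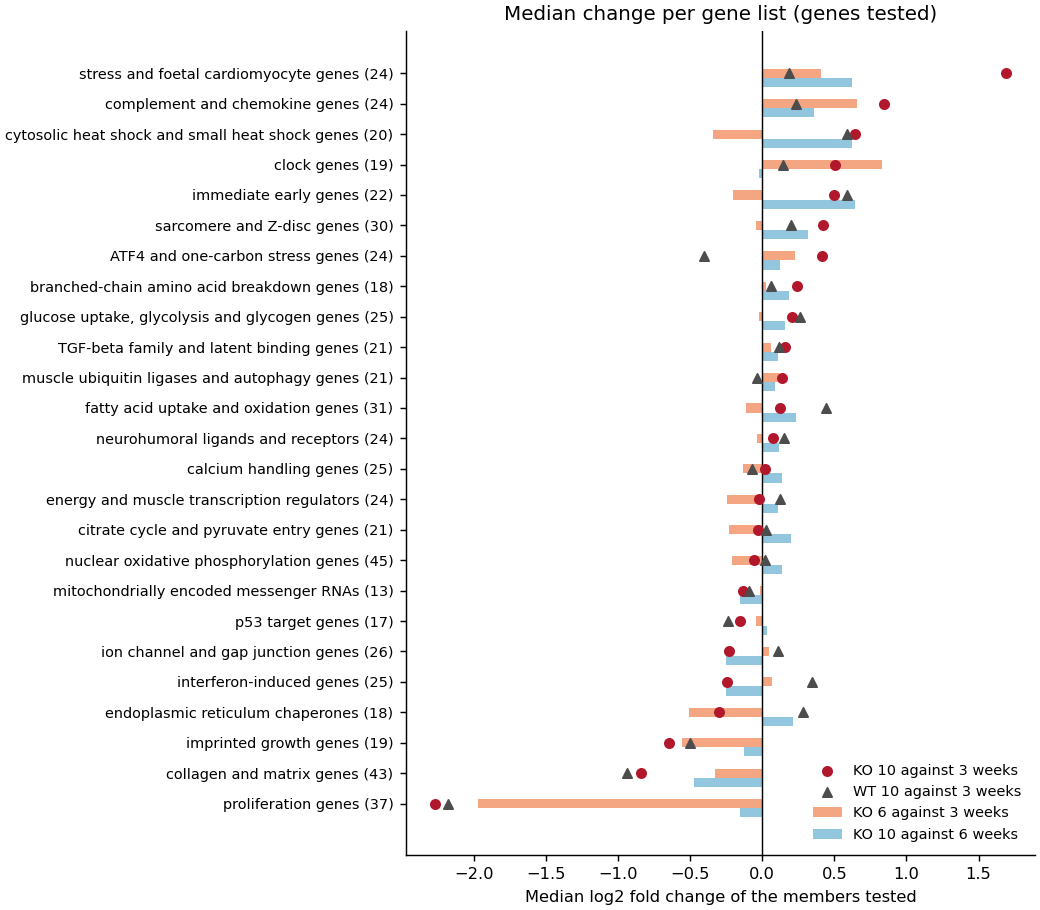
Median log2 fold change of the tested members of each of 25 gene lists: bars for the KO early step (6 against 3 weeks) and late step (10 against 6 weeks), circles for KO 10 against 3 weeks and triangles for WT 10 against 3 weeks. Proliferation genes fell in the early step, heat shock genes had a median below 0 in the early step and above 0 in the late step, and ATF4 genes had medians of 0.42 in KO and -0.40 in WT.

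The 10 largest rises by log2 fold change included genes on none of the lists. Cpxm2, a secreted carboxypeptidase-like protein, rose from 4.814, 2.857 and 4.676 CPM at 3 weeks through 37.22 to 48.1 CPM at 6 weeks to 98.85, 156.1 and 123.7 CPM at 10 weeks (4.92 ± 0.33, SE, edgeR adjusted p = 9.74e-08). Bdh1, the ketone body enzyme beta-hydroxybutyrate dehydrogenase, was at 11.6, 9.467 and 21.88 CPM, then 198.2 to 233.2 CPM and then 363.9, 425.1 and 482.8 CPM (4.88 ± 0.37, SE, edgeR adjusted p = 9.24e-07). In both the 3 ages did not overlap, both also rose in WT (2.65 and 2.73), and the rise was larger in KO (edgeR adjusted p of the difference 0.01 and 0.015). Psca, a GPI-anchored surface antigen, went from 0.9352 to 1.619 CPM through 5.675 to 20.57 CPM to 34.8, 53.74 and 62.45 CPM (5.36 ± 0.44, SE, edgeR adjusted p = 8.17e-07). Ryr3, a ryanodine receptor of smooth and developing muscle, went from 0.744 to 1.737 CPM through 5.273 to 11.35 CPM to 21.82, 52.83 and 11.67 CPM, and Drd1, a dopamine receptor, from 0 to 0.2801 CPM through 0.4608 to 0.8538 CPM to 1.333, 4.171 and 1.751 CPM.

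Sprr1a, a small proline-rich protein induced in stressed cardiomyocytes, reached 17.89, 15.66 and 2.043 CPM at 10 weeks from at most 0.6722 CPM. Cldn23, a claudin, was at 9.822 CPM in KO 10-week replicate 1 and 1.934 and 0.642 CPM in the others. Kcnma1, a calcium-activated potassium channel, had 2 counts over the 3 libraries at 3 weeks and 102 at 10 weeks, a ratio of 57.0 with a counting interval of 15.4 to 477 (95%). Ighg2c and Igha, immunoglobulin constant region genes with similar copies in the genome, also rose. Ighg2c had 2 counts at 3 weeks and 106 at 10 weeks, a ratio of 59.2 with an interval of 16 to 495. In WT Ighg2c also rose, from 0 counts at 3 weeks to 66 at 10 weeks, with a lower bound of 17 on the ratio. In KO 0 of 10 B cell markers were called (edgeR, with 2 higher at an unadjusted p under 0.05), against 2 without KO 10-week replicate 3 and 1 without KO 10-week replicate 2. These intervals cover counting error only.

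Calls in both steps were rarer than calls in a single step, but a gene had to pass both tests to count. A step without a call does not show that the gene stayed level in it. Calls in the same direction in both steps numbered 77 rises and 37 falls. Beside the genes above, the falls included Dbh, dopamine beta-hydroxylase of noradrenaline synthesis, at 2.363 to 3.694 CPM, 0.6337 to 1.557 CPM and 0.2806 to 0.4836 CPM, which in WT was 6.37 to 8.678 CPM at 3 weeks and 5.671 to 9.588 CPM at 10 weeks (edgeR adjusted p of the difference = 0.00036). Pnpla3, a lipid droplet acyl hydrolase, fell by 3.01 and Adamts17, a matrix protease, by 2.36 on the log2 scale.

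Another 155 genes peaked at 6 weeks and 186 had a trough there, called in opposite directions in the 2 steps, and the whole-span comparison called 13 and 24 of them. Among the 5 deepest troughs, Cdkn1a, the cell cycle inhibitor p21, was at 107.3, 113.5 and 169.7 CPM at 3 weeks, 11.69, 12.3 and 20.44 CPM at 6 weeks and 119.1, 107 and 73.6 CPM at 10 weeks. The 6-week libraries lay below all others, and the outer ages overlapped (-0.38 ± 0.20 from 3 to 10 weeks, SE, edgeR adjusted p = 0.207). Nr4a3 was at 33.79, 95.73 and 94.65 CPM, then 1.786 to 2.271 CPM and then 40.06, 32.58 and 14.01 CPM. Its outer ages overlapped, and its net fall of 1.37 on the log2 scale had edgeR adjusted p = 0.0308, and 0.1 without KO 3-week replicate 2. The Nr4a3 call was also lost without KO 3-week replicate 3 and without KO 10-week replicate 2 or 3. It was lost again without the 3 atrial-rich libraries and in the fit of only the libraries compared. Agt, angiotensinogen, was at 4.705 to 15.41 CPM, 0.9542 to 2.603 CPM and 6.525 to 10.09 CPM. Tent5b and Adamts4, the other troughs of this rank, ran at 2.461 to 4.781 CPM and 0.452 to 1.052 CPM at 6 weeks against 9.411 to 23.1 CPM and 7.659 to 17.48 CPM at 3 weeks.

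Of the 5 highest peaks, Per3 and Hlf belong to the clock and its output. Per3 was at 20, 9.355 and 6.219 CPM at 3 weeks, 52.02, 65.44 and 50.68 CPM at 6 weeks and 14.17, 17.29 and 26.96 CPM at 10 weeks, and Hlf at 9.971 to 13.96 CPM, 26.33 to 31.19 CPM and 8.463 to 14.18 CPM. For both genes every 6-week library lay above all others while the outer ages overlapped. Mid1ip1, a regulator of fatty acid synthesis, was at 205 to 222.4 CPM at 6 weeks, above 38.91 to 90.41 CPM at 3 weeks and 43.64 to 158.8 CPM at 10 weeks, and Gal3st2c, a sulfotransferase gene, at 3.434 to 5.424 CPM against at most 2.407 CPM at the other ages. Xist, the remaining peak, rested on the single KO 6-week library described above.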

How the data were processed

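Per the labels' protocols, RNA of frozen tissue was purified on RNeasy Plus Universal columns (Qiagen) and libraries were built with NEBNext Ultra II RNA reagents. Each deposited table gave raw counts for 49315 Ensembl genes, with no normalization. Reads were trimmed, aligned and counted with tools that the submitters' processing notes list as Trimmomatic 0.36, STAR 2.5.2b and featureCounts of Subread 1.5.2, on build GRCm38. The strand setting, annotation release and treatment of multimapping reads are not given in the sources used here, so counts of overlapping or antisense genes and of near-identical copies (actins, Hspa1a and Hspa1b, immunoglobulin constant genes) are uncertain. GENCODE M21 gave symbols for 49056 identifiers, and 259 did not match.

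The 18 libraries held 14980968 to 23001047 counts. Pairs of replicates differed with a chi-squared of 7.557 to 70.47 for each degree of freedom, so none was a copy. Genes kept by filterByExpr (minimum count 10, minimum total 15) were fitted in 1 robust quasi-likelihood model over all 18 libraries with TMM scaling (edgeR 4.0.16, R 4.3.3), and every adjusted p given is from edgeR over all 15778 genes. The SE of a log2 fold change is its size divided by the root of the test's F. CPM is scaled by TMM, and log2 CPM used a prior count of 2. Alternatives used DESeq2 1.42.0 and limma 3.58.1 (voom). Libraries rich in atrial transcripts were those with Myl4 over 10 times the median of the 18. Scripts were checked on simulated data.

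The lists and the genes named were chosen with earlier results of these data known. The naming rule took 19 reference genes, the 10 largest called rises and falls without overlap and with at least 2 CPM, in each list at most 3 called members that rose and 3 that fell, by p, the 5 largest differences from WT per direction, and the 5 largest peaks, troughs, stepwise rises and stepwise falls. Predicted loci were left out. Other genes are given as named after their values were seen. Between KO groups the deviations of same-numbered libraries from their group means correlated at -0.2195 to 0.08565. Between WT at 3 and 6 weeks they correlated at 0.07311 to 0.1125, and differently numbered libraries at -0.08053 to -0.01411. For the other pairs of WT ages same-numbered libraries ran from -0.07608 to 0.08019. With 3 libraries a group, correlations of this size cannot show whether the numbers pair the libraries.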

Additional observations from a re-analysis of the deposited data

Results flagged for a closer look

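The age change from 3 to 10 weeks was called different between KO and WT for 909 genes by the test of the difference itself (edgeR). The 5 largest differences in each direction by log2 were marked by that test, and for several of them the change lay in WT. Psca had a difference of 6.70, with 34.8 to 62.45 CPM in KO and 0.1479 to 0.3486 CPM in WT at 10 weeks. Ptprn2, a receptor-type phosphatase of secretory granules, had a difference of 10.3. It was at 7.623 to 10.64 CPM in WT at 3 weeks and had 1 count over the 3 WT libraries at 10 weeks against 517 at 3 weeks, a ratio of 530 with a counting interval of 94.6 to 21000 (95%), while KO libraries stayed at 0.4911 CPM or lower. Kcnj14, an inward rectifier potassium channel, had a difference of 7.96, falling in WT from 32.77 to 44.15 CPM to 0.5918 to 1.046 CPM and rising in KO from 1.076 to 3.249 CPM to 7.763 to 11.67 CPM. Pak3, a p21-activated kinase, differed by 5.52 and Pou3f1, a POU-domain factor, by 4.60. Pou3f1 was at 9.922 to 17.77 CPM in KO at 10 weeks and at most 2.011 CPM in every other library at 3 or 10 weeks.

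Eps8l1 had a difference of -5.86, from 0.0971 to 0.7078 CPM in WT at 3 weeks to 14.11 to 25.4 CPM at 10 weeks, with at most 0.6547 CPM in KO at both ages. Unc5a, a netrin receptor, had a difference of -5.04, with 2 counts in WT at 3 weeks and 117 at 10 weeks, a ratio of 57.1 with an interval of 15.5 to 477. Hrasls, a phospholipid-metabolising acyltransferase, differed by -3.99 and rose in both genotypes, to 23.91 to 32.83 CPM in WT and 7.471 to 11.06 CPM in KO. Gbp10 differed by -3.59 and Cnmd, which encodes chondromodulin, by -3.40. Cnmd reached 4.093 to 5.656 CPM in WT and 0.7717 to 1.511 CPM in KO at 10 weeks.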

How the results depend on the processing

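No named gene reversed its direction over the whole span in any alternative, and of 155 named genes called, 51 lost their call in at least 1 of them, 50 of these with only the libraries of the groups compared. Among the 50 were Ankrd1 (edgeR adjusted p = 0.0831), Postn (0.129), Ltbp2 (0.102), Tgfb2 (0.111), Ccn2 (0.198) and Manf (0.117). Another 9 named genes gained a call in at least 1 alternative. The fit of only those libraries gave 1405 genes for KO 10 against 3 weeks, 1399 for 6 against 3, 874 for 10 against 6, 3383 in WT and 484 for the difference from WT. Asking for over 2-fold left 1059 genes for KO 10 against 3 weeks, 593 for 6 against 3, 575 for 10 against 6, 796 in WT and 494 for the difference. Without the 3 libraries rich in atrial transcripts the 2 steps gave 1099 and 1241, and with no low-count filter the difference gave 1479. The share of called genes with the 6-week level between was 70.74% with no low-count filter, 78.3% without the atrial-rich libraries and 78.28% for called genes over 2-fold.

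Leaving out 1 library at a time gave 2230 to 3319 genes for KO 10 against 3 weeks, 1089 to 1620 for 6 against 3, 983 to 2634 for 10 against 6, 1462 to 2743 in WT, 552 to 1497 for the difference and 68.13% to 78.34% for the share between. With the replicate block KO 10 against 3 weeks gave 3096 genes, though the labels do not say that replicate numbers pair the libraries. DESeq2 called 3546, limma voom 3145, RLE scaling 3230 with 55.4% of calls higher, and upper quartile scaling 3184 with 44.2% higher, against 48.7% in the edgeR fit with TMM. At 3 libraries a group, genes of a few counts, such as Ighg2c or Drd1, are limited by counting error. List counts without single libraries or without the atrial-rich libraries were added after seeing the data.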
